A study of Mus musculus with 4 samples.

Results

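B cells of the mouse brain were selected on 4 transcripts of the B lineage, Cd79a and Cd79b (the signalling chains of the B cell receptor), Ms4a1 (CD20) and Ly6d (a surface protein of early lymphoid cells). A cell barcode was kept when it held at least 1000 unique molecular identifiers (UMIs, each a captured RNA molecule), a mitochondrial share of at most 15.8%, at least 8 UMIs summed over the 4 transcripts, at most 1 UMI of the T cell receptor genes Cd3d, Cd3e and Cd3g, and fewer than 30 UMIs per 10000 of the microglial genes C1qa, C1qb and C1qc. Of 36876 barcodes in 4 libraries, 30941 passed the limits on UMIs and mitochondrial share and 93 met the whole rule. The measured counts chose these barcodes, so the 4 transcripts are described here, no test of them is given, and they are left out of every list count below. The whole brain of C57BL/6J mice was dissociated and sequenced with droplet 3′ chemistry, with 1 library for each combination of age and diet. Adult mice were 3 to 4 months old and aged mice 23 to 24 months old when they were moved to a purified AIN-93M diet with 1% cellulose and either 0% or 5% inulin, a fermentable fibre. All groups had the same base diet and strain. The adult mice were bred in-house and the aged mice came from an ageing colony, so age and origin cannot be told apart. By the study's methods the sequenced mice were male and stayed on the diet for 8 weeks, while the labels do not give the sex of each mouse. The comparisons asked whether age or dietary inulin changed the number and the expression of these cells. With 2 mice per age and 2 per diet, each differing in the other factor, an exact permutation test cannot give a p below 0.333.

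B cells develop in the bone marrow, where precursors that still carry the surrogate light chain (Vpreb and Igll genes) rearrange their heavy and light chain genes with the Rag recombinase. Mature naive cells carry IgM and IgD and present antigen on MHC class II, and after activation they can become plasma cells, which lose much of the B cell programme and secrete antibody. In the healthy brain B cells are rare and sit mainly in the meninges, the choroid plexus and the blood.

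The 93 barcodes held 1013301 UMIs. The adult mouse fed 0% inulin gave 19 barcodes with a median of 4489 UMIs, the adult mouse fed 5% inulin 27 with 4544, the aged mouse fed 0% inulin 24 with 11608, and the aged mouse fed 5% inulin 23 with 14210. Median depth was thus higher in both aged mice than in both adult mice, while the median over all filtered barcodes lay between 6883 and 7575 in the 4 libraries. No barcode sequence was selected in more than 1 mouse, and 6 of the 93 also occurred in another library. The threshold on the marker sum fell in a nearly empty stretch: 3 selected barcodes had a sum of 8 to 10, and 1 barcode with a sum of 5 to 7 met every other limit and was left out. Of 93 barcodes, 59 held all 4 transcripts. No doublet caller was run, 10 barcodes exceeded 22005 UMIs, and 11 held at least 20 UMIs of microglial, endothelial, mural, fibroblast, astrocyte, oligodendrocyte or neuronal markers. Ttr, the leading transcript of the choroid plexus, was found in all 93, with a mean of 17.2 UMIs per 10000 at the lowest and 70.6 at the highest of the 4 ranges described next.

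The label of B cell did not hold for the whole selection. The barcodes fell into 4 ranges, cut after their values were seen and therefore not tested: 18 precursor-like barcodes with at least 10 Vpreb3 UMIs, 44 mature-like barcodes, 20 plasma cell-like barcodes in which immunoglobulin genes took at least 10% of UMIs, and 11 barcodes with at least 5 UMIs of Siglech, a receptor of plasmacytoid dendritic cells. The gaps at the cuts were wide for Siglech (1 UMI below, 7 above) and for the immunoglobulin share (3.62% below, 16.6% above). They were narrower for Vpreb3 (5 UMIs below, 14 above), with 2 barcodes within 5 UMIs of the cut.

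**Figure D1:**
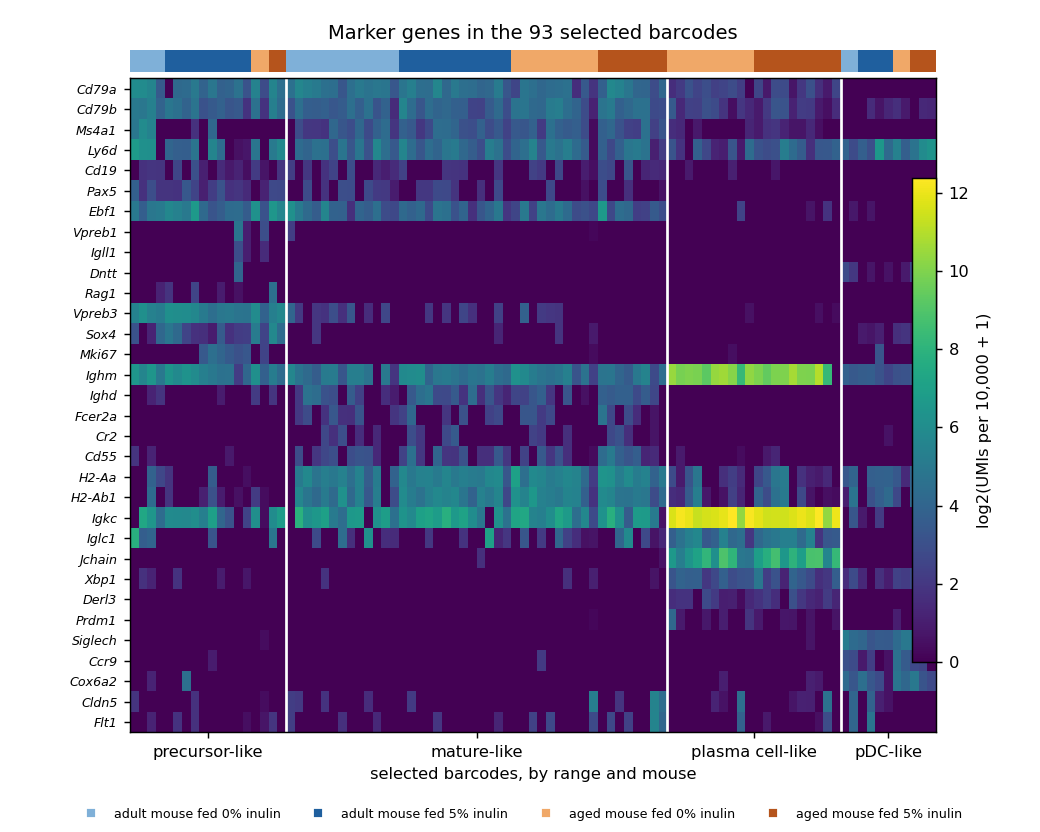
Expression of 32 marker genes (rows, log2 of UMIs per 10000 plus 1) in each of the 93 selected barcodes (columns), ordered by range and, within a range, by mouse (coloured bar). Cd79a is filled in 17 of 18 precursor-like and all 44 mature-like columns and is empty in all 11 pDC-like columns, where Siglech is filled, and Igkc and Jchain are brightest in the 20 plasma cell-like columns.

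The 11 Siglech barcodes held no Cd79a and no Ms4a1 UMI, and Ly6d made up 97.4% of their marker UMIs. All 6 listed markers of plasmacytoid dendritic cells were detected in at least 25% of them at 1.5 times or more the mean of the other members (Siglech, whose cut defined the range and fixed its own result, and Ccr9, Klk1, Cox6a2, Pacsin1 and Rnase6). Their leading genes were Tyrobp, Bst2, Siglech and Irf8, with Bst2 at a mean of 38.6 UMIs per 10000 against 0.829 in the other members. There were 2 in the adult mouse at 0% inulin, 4 in the adult mouse at 5%, and 2 and 3 in the aged mice at the same diets. These barcodes are called pDC-like here and remain among the 93 that the rule selects.

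The 18 precursor-like barcodes were led by Vpreb3 and by Sox4, a transcription factor of lymphoid progenitors, which stood at a mean of 11.8 UMIs per 10000 against 0.245 in the other members. Pax5, the factor that commits cells to the B lineage, was found in 17 of 18 and Ebf1 in all 18. Rag1 was detected in 6 and Rag2 in 4, and no mature-like, plasma cell-like or pDC-like barcode held either. The surrogate light chain genes Vpreb1 or Igll1 were found in 3 barcodes, of which 2 held at least 10 UMIs of the pair and at most 1 UMI of any light chain constant gene. In contrast, 16 of 18 held at least 3 light chain UMIs. At least 10 UMIs of the dividing cell list were present in 8 barcodes, whose median depth was 11962 UMIs against 3934.5 in the other 10. Of these 8, 6 came from the adult mouse fed 5% inulin. By mouse there were 4 precursor-like barcodes in the adult mouse at 0% inulin, 10 in the adult mouse at 5%, and 2 in each aged mouse. Their shares of filtered barcodes were 0.0508% and 0.117% in the adult mice and 0.0302% and 0.0254% in the aged mice. Both aged mice lay below both adult mice, but the exact 95% intervals overlapped, with an upper bound of 0.109% in the aged mouse fed 0% inulin and a lower bound of 0.0138% in the adult mouse fed 0% inulin. These intervals cover counting error only.

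The 44 mature-like barcodes carried transcripts of mature naive B cells. Ighd, the heavy chain of IgD, was found in 35, Fcer2a (CD23) in 23, Cr2 (a complement receptor) in 16, and Cd55 (a complement regulator) in 32. Of 10 markers of mature naive B cells, 9 were detected at 1.5 times or more the mean of the other members, as were 9 of 10 genes of MHC class II presentation. H2-Aa, a class II chain, had a mean of 38.4 UMIs per 10000 here, against 1.83 in precursor-like and 6.73 in plasma cell-like barcodes. So were 7 of 12 immediate early genes, among them Egr1 and Nr4a1, 7 of 8 heat shock genes, and 5 of 17 genes of NF-kB and activation, among them Cd69 and Cd83. No marker of the age-associated B cell list was detected in that way, and Tbx21, its defining transcription factor, was found in 2 barcodes. Lambda exceeded kappa constant UMIs in 6 of the 43 mature-like barcodes with at least 3 light chain UMIs. By mouse there were 13 and 13 in the adult and 10 and 8 in the aged mice, or 0.165%, 0.152%, 0.151% and 0.102% of filtered barcodes. The aged mouse fed 5% inulin was lowest, and its interval of 0.0439% to 0.200% held the other 3 values. UMIs of other brain cells were present in this range: 6 of the 44 held at least 20 of another type, among them the deepest barcode of all, with 69096 UMIs and 500 UMIs of the endothelial list.

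Plasma cell-like barcodes were found in both aged mice and in neither adult mouse. There were 10 in the aged mouse fed 0% inulin (0.151% of 6633 filtered barcodes, exact 95% interval 0.0723% to 0.277%) and 10 in the aged mouse fed 5% inulin (0.127% of 7867, 0.0610% to 0.234%). The count was 0 of 7875 and 0 of 8566 in the adult mice, which allows a share of up to 0.0381% and 0.0350% at 3 counts, while the exact 95% intervals reach 0.0468% and 0.0431%. The intervals and limits cover counting error only, and the range was chosen after its values were seen, so no test is given. Immunoglobulin genes made up 16.6% to 73.5% of the UMIs of these barcodes, with a median of 47.1%, and at most 3.62% in the other 73.

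**Figure D2:**
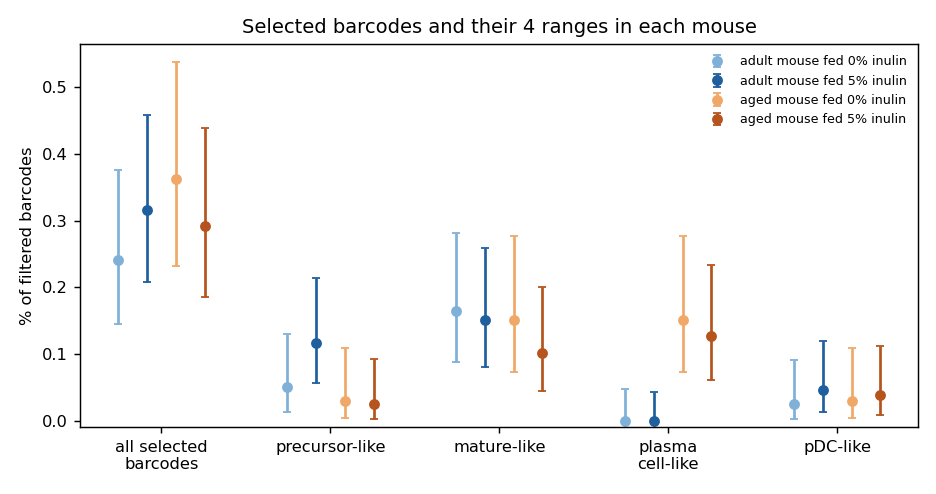
Share of filtered barcodes (percent) for all 93 selected barcodes and for each of the 4 ranges, with 1 point per mouse and bars for the exact 95% binomial interval, which covers counting error only. The plasma cell-like points are at 0 in both adult mice and at 0.151% and 0.127% in the aged mice, while the intervals of the other ranges overlap between the ages.

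**Figure D3:**
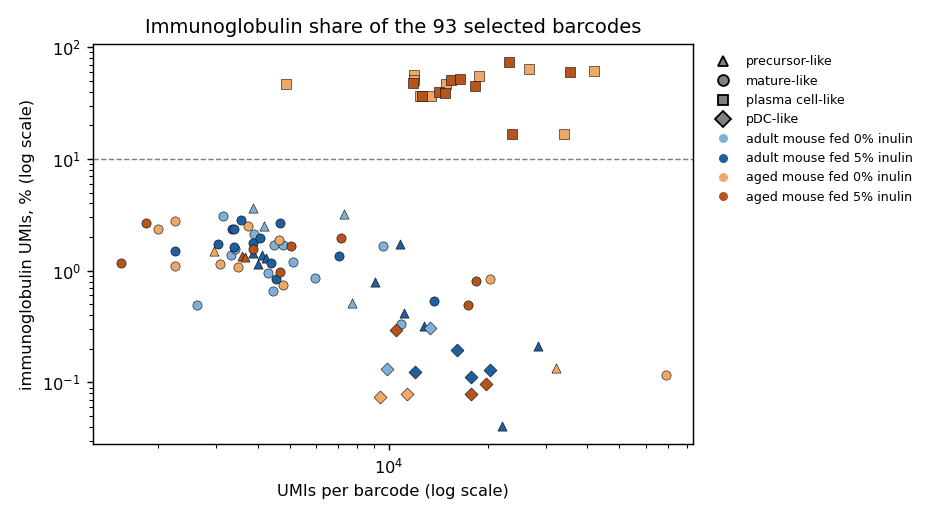
Immunoglobulin UMIs as a percentage of all UMIs (y, log scale) against UMIs per barcode (x, log scale) for the 93 selected barcodes, with the range as symbol and the mouse as colour. The 20 plasma cell-like barcodes, all from aged mice, lie above the dashed line at 10%, and no other barcode exceeds 3.62%.

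Genes of antibody secretion marked these 20 barcodes. Jchain, which joins IgM and IgA units, was found in all 20 at a mean of 201 UMIs per 10000 and in 2 of the other 73. Xbp1 and Derl3, of the secretory stress response and of protein export from the endoplasmic reticulum, were found in 20 and 18, Sdc1 (CD138, the surface mark of plasma cells) in 20, and Prdm1 (the factor Blimp1) in 10. Of the 9 plasma cell markers, 7 were detected at 1.5 times or more the mean of the other members, and Mzb1 and Irf4 were not. Prg2, a granule protein, and Slpi, a secreted protease inhibitor, were among the leading genes and were found in 19 and 17. Pax5 was at 0 in all 20, Ms4a1 was found in 12, and Cd79a in 19. Ly6d gave 56.6% of their marker UMIs. Ighm was the leading heavy chain in 19 barcodes, 10 of 10 in the aged mouse fed 0% inulin and 9 of 10 in the aged mouse fed 5% inulin. The remaining barcode held 6108 UMIs of Ighg2b and none of Ighm. Kappa was the leading light chain in all 20, with 69405 Igkc UMIs against 1134 lambda UMIs in the aged mouse fed 0% inulin and 64570 against 993 in the aged mouse fed 5% inulin.

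The variable genes of the plasma cell-like barcodes were not evenly used. Each plasma cell normally makes 1 heavy and 1 light chain, and the variable gene of each chain is a mark of its clone. A 3′ library seldom reads this end of the transcript: kappa variable UMIs were 0.269% as many as Igkc UMIs, with 4 to 49 per barcode, and heavy variable UMIs numbered 1 to 23. In the aged mouse fed 5% inulin, Igkv4-55 was the leading kappa variable gene in 9 of 10 barcodes, 8 of them together with Ighv1-53. Among these 8, 1 barcode also held 20 UMIs of the lambda variable gene Iglv1 against 8 kappa variable UMIs, and another held 9 against 35. The same pair led in 2 of 10 barcodes of the aged mouse fed 0% inulin, where 7 kappa and 7 heavy variable genes led in the 10 barcodes. Igkv4-55 was at 0 in the other 9 of the 20, and no precursor-like, mature-like or pDC-like barcode held it. Outside the immunoglobulin-rich barcodes it was found in 6 barcodes of the aged mouse fed 5% inulin with 1 UMI each, and in none of the other 3 mice. Whether barcodes with the same pair share a rearrangement cannot be told from gene counts. The germline sequences of the pair are shown because they carry this observation, in GENCODE annotation vM21 of GRCm38. Igkv4-55 lies on chromosome 6, minus strand, as an immunoglobulin variable gene of 2 exons from 69607275 to 69607828, and Ighv1-53 on chromosome 12, minus strand, with 2 exons from 115158403 to 115158835. The last 300 coding bases of each are given 5′ to 3′, from the second exon, at chr6:69607275-69607574 and chr12:115158403-115158702. Capitals mark the codons for tyrosine, tyrosine and cysteine that end the third framework and the germline bases after them, where the joined segment begins.
Igkv4-55: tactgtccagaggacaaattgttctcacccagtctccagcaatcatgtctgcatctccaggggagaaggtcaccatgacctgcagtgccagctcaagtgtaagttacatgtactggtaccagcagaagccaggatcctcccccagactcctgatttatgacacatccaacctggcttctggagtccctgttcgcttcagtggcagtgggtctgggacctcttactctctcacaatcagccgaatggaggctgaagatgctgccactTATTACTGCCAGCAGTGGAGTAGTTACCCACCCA
Ighv1-53: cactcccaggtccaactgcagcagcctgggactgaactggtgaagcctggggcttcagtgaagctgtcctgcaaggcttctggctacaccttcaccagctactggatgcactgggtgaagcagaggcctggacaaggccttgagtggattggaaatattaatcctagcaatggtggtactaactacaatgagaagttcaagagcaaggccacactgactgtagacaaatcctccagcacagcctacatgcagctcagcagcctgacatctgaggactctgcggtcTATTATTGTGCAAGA
The nearest other kappa gene, Igkv4-68, matched 95.3% of the first stretch, and the nearest heavy gene, Ighv1-69, 96.3% of the second. In all, 4 of 159 kappa and 9 of 182 heavy genes matched at 95% or more, so reads of the pair could have been assigned to a near copy or lost.

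**Figure D4:**
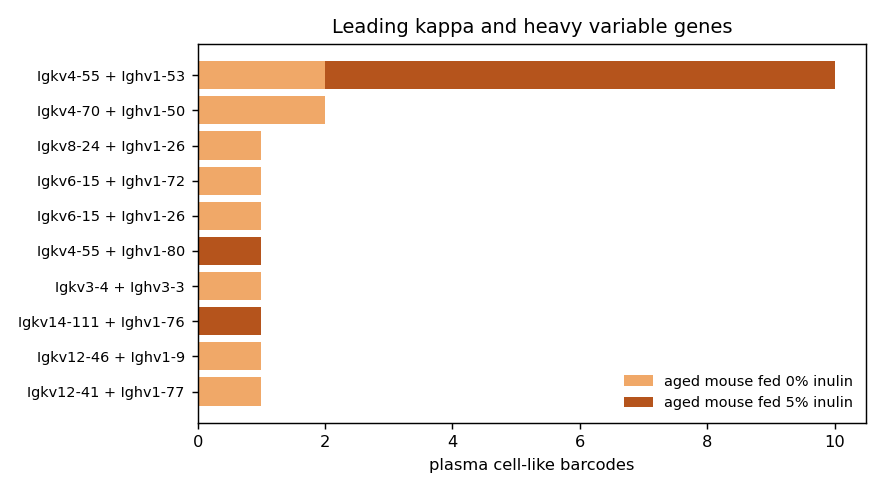
Number of plasma cell-like barcodes (x) led by each pair of kappa and heavy variable genes (y), with bars stacked by mouse. Igkv4-55 with Ighv1-53 led in 8 barcodes of the aged mouse fed 5% inulin and 2 of the aged mouse fed 0% inulin, and no other pair led in more than 2.

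Over the whole selection the number of barcodes did not separate the ages. The share of filtered barcodes was 0.241% in the adult mouse fed 0% inulin (exact 95% interval 0.145% to 0.377%), 0.315% in the adult mouse fed 5% inulin (0.208% to 0.458%), 0.362% in the aged mouse fed 0% inulin (0.232% to 0.538%) and 0.292% in the aged mouse fed 5% inulin (0.185% to 0.438%). The groups overlapped, since the aged mouse fed 5% inulin lay between the adult mice. The mean was 0.278% ± 0.0523 (SD, n = 2) in adult and 0.327% ± 0.0491 (SD, n = 2) in aged mice (exact permutation test, two-sided, p = 0.667). Without the immunoglobulin-rich barcodes the difference changed from 0.0489 to -0.0901 percentage points, and both aged mice then lay below both adult mice. That range was cut after its values were seen and holds aged barcodes only. Its removal could only lower the aged shares, so no test is given. By diet the means were 0.302% ± 0.0852 (SD, n = 2) at 0% and 0.304% ± 0.0161 (SD, n = 2) at 5% inulin (exact permutation test, p = 1). T cells, selected in the same way on Cd3 genes, numbered 66, 84, 196 and 302, so that there were 0.288 and 0.321 selected barcodes per T cell in the adult and 0.122 and 0.0762 in the aged mice. These numerators include the pDC-like barcodes, without which they were 17, 23, 22 and 20. Both aged ratios lay below both adult ratios (exact permutation test, p = 0.333, the smallest it can give).

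To compare cells of unequal depth, each was thinned to 1000 UMIs. A precursor gene (Vpreb1, Igll1, Dntt, Rag1 or Rag2) was then found in 5.26% of the selected barcodes of the adult mouse at 0% inulin and 14.8% at 5%, against 4.17% and 4.35% in the aged mice. Both aged mice lay below both adult mice, but with 1 and 4 barcodes in the adult mice against 1 in each aged mouse (exact permutation test, two-sided, p = 0.333). Without the plasma cell-like barcodes, which hold no precursor gene and are all from aged mice, the groups overlapped, with means of 10.04% in adult and 7.42% in aged mice. Their removal could only raise the aged shares, so no test is given. Without thinning the shares were 21.1% and 33.3% in adult and 12.5% and 17.4% in aged mice. Dntt was also found in 8 of the 11 pDC-like barcodes and in 1 precursor-like barcode. Ighd was found after thinning in 31.6% and 18.5% of the adult and 20.8% and 30.4% of the aged barcodes, and these ranges overlapped (exact permutation test, p = 1). The plasma cell-like barcodes held no Ighd. Without them both aged mice lay above both adult mice, with means of 44.8% and 25.05% and a difference of 19.7 percentage points. Here too their removal could only raise the aged shares, so no test is given. Without thinning the Ighd shares were 57.9% and 48.1% in adult and 33.3% and 34.8% in aged mice. In endothelial barcodes, which should lack both, 0% held Ighd and at most 0.2% a precursor gene after thinning in every mouse, and 0.125% to 0.190% and 1.85% to 2.63% without thinning, at median depths of 6732 to 7696 UMIs.

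The lambda share of light chain UMIs was 38.9% and 26.6% in the adult mice and 1.75% and 1.85% in the aged mice, with no overlap (exact permutation test, two-sided, p = 0.333, the smallest it can give). Without the plasma cell-like barcodes the means were 32.7% in adult and 31.0% in aged mice, and the difference was -1.75 percentage points. That range was cut after its values were seen and holds aged barcodes only, so no test is given.

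The age comparison of expression was made on UMIs summed over the selected barcodes of each mouse, with edgeR's quasi-likelihood test, Benjamini-Hochberg adjustment and a threshold of 0.05 and 1.5-fold. Of 3773 genes tested, 73 were called (1.93%), 46 higher in aged mice (1.22%) and 27 lower (0.716%). For comparison, both aged mice lay above both adult mice for 22.9% of the genes and below them for 25.7%. Median depth and the share of plasma cell-like barcodes differed between the ages together with these sums. Of the 46 higher genes, 33 had more than 50% of their aged UMIs in the plasma cell-like barcodes and 13 in the 5 aged barcodes rich in endothelial markers, with 1 gene in both counts and H2-D1 in neither. Of these 5 barcodes, 2 were themselves plasma cell-like. The plasma cell-like barcodes held 190715 of all 362124 selected UMIs in the aged mouse fed 0% inulin. They held 185824 of 300980 in the aged mouse fed 5% inulin, and so more than 50% in each. Of the 27 lower genes, 21 had more than 50% of their adult UMIs in 2 adult barcodes rich in astrocyte markers. The same counts over all tested genes are not given, so these counts are not read as a trait of the called genes. Without the immunoglobulin-rich barcodes no gene of 2461 was called (0%), with 213 at an unadjusted p under 0.05, and 49 of the 73 genes were among those tested. Some differences kept their direction without being called, with log2 fold changes of 2.94 for Cldn5 and -1.92 for Vpreb3, against 2.73 and -2.55 over all selected barcodes. The count also rested on single libraries: edgeR called 3 genes without the adult mouse fed 0% inulin, 4 without the adult mouse fed 5% inulin, 186 without the aged mouse fed 0% inulin and 307 without the aged mouse fed 5% inulin. With diet as a covariate, which compares mice on the same diet, it called 166 genes, the 73 among them.

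The 3 higher genes of smallest p were Ighm, Igkc and Jchain. Ighm, the IgM heavy chain, stood at 2617 CPM (UMI counts scaled to a common library size, TMM-adjusted) in the adult mouse at 0% inulin, 2090 in the adult mouse at 5%, and 72483 and 78010 in the aged mice. It was 32.0-fold higher in aged mice (log2 fold change 5.00, SE 0.14, edgeR adjusted p = 2.579e-05). Igkc, the kappa constant chain, was 5412 and 3106 in adult and 260380 and 306190 in aged mice (log2 fold change 6.06, SE 0.29, edgeR adjusted p = 0.000457). Jchain had 0 and 1 UMI in the adult mice and 2683 and 4860 in the aged mice, a ratio of 3984 with a counting interval of 715 to 157364. Xbp1 rose from 110 and 47.5 to 690 and 778 CPM (log2 fold change 3.31, SE 0.42, edgeR adjusted p = 0.0294). Of 9 plasma cell markers, 5 passed the low-count filter, and Jchain, Xbp1, Sdc1 and Derl3 were called higher in aged mice, against 1.22% of all genes. Jchain, Sdc1 and Derl3 had 1, 6 and 0 UMIs over both adult mice and passed the filter only through the aged mice where they are high. Their tests, that count and a median are therefore not read further. The other higher genes named by rule were Txndc5, an oxidoreductase of the endoplasmic reticulum (log2 fold change 3.02), Slpi (6.04), Tmem176b (3.11), Odc1, which starts polyamine synthesis (3.04), Ly6a (2.37), Ier3, Tent5c, a poly(A) polymerase known in plasma cells, and Oosp1. Tent5c and Oosp1 each had 1 UMI over both adult mice, and the ratios were 44.9 (counting interval 7.84 to 1794) and 32.2 (5.57 to 1293). Ier3 had 2 UMIs in the adult mice, and its ratio was 19.5 (5.22 to 164). Tent5c, Oosp1 and Ier3 passed the low-count filter only through the aged mice where they are high, and their calls are not read further. Ier3 differed from the others in its source, since 87.8% of its aged UMIs were in the endothelial-rich barcodes.

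Of 8 MHC class I genes tested, 3 were called, against 1.22% of all genes called higher. They were B2m (log2 fold change 1.39, SE 0.17), H2-K1 (1.17, SE 0.17) and H2-D1 (1.11, SE 0.20), all higher in aged mice with edgeR adjusted p of 0.0294, 0.0343 and 0.0497. B2m, the light chain of class I molecules, was at 1110 and 1100 CPM in the adult and 2992 and 2788 in the aged mice, with 68.6% of the aged UMIs in plasma cell-like barcodes. Of all selected UMIs these barcodes held 190715 of 362124 in the aged mouse fed 0% inulin and 185824 of 300980 in that fed 5%. The list median of 0.91 on the log2 scale was 0.39 without those barcodes. Of 11 immediate early genes, Fos and Jun were called, against the same 1.22%, at log2 fold changes of 3.66 (SE 0.43) and 2.05 (SE 0.26), with edgeR adjusted p of 0.0294 for each. Fos stood at 161 and 75.2 CPM in adult and 1727 and 1123 in aged mice. Without the immunoglobulin-rich barcodes the differences were 2.45 for Fos and 1.25 for Jun and were not called.

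Lower in aged mice were Vpreb3 and Pax5. Vpreb3, a chaperone of the pre-B cell receptor, stood at 1076 and 1436 CPM in adult and 261 and 165 in aged mice (log2 fold change -2.55, SE 0.32, edgeR adjusted p = 0.0294), with 94.1% of its adult UMIs in precursor-like barcodes. Pax5 was 263 and 190 CPM in adult and 26.1 and 33.0 in aged mice. With 7 UMIs in each aged mouse, Pax5 passed the low-count filter only through the adult mice, and its call is not read further. H3f3a, a replacement histone, fell by 1.09 on the log2 scale. Vpreb3 was the only called gene among 7 precursor markers tested, against 0.716% of all genes called lower. Of 12 genes of B cell identity none but Pax5 was called, and the list median was -0.90. None of 16 genes of B cell receptor signalling, 9 of mature naive B cells, 9 of MHC class II presentation or 8 of dividing cells was called, with medians of -0.83, -0.70, -0.34 and -1.47. Without the plasma cell-like barcodes these medians were -0.32, -0.16, -0.11 and -0.71, and that of B cell identity was -0.59. Other lower genes named by rule were Slc4a4, Gpr37l1, Atp1b2, Gjb6, Slc6a11, F3, Gja1, Gria2, Gpld1 and Ntm, several of them known astrocyte transporters and connexins. Gria2, Gpld1 and Ntm had no UMI in the aged mice and were at least 25.9-fold, 14.5-fold and 13.9-fold lower, against a floor of 3 counts over both mice. All 10 of these lower genes had at most 5 UMIs in each aged mouse. They passed the low-count filter only through the adult mice, and their calls are not read further. Between 80.5% and 98.6% of the adult UMIs of these 10 genes came from the 2 barcodes rich in astrocyte markers. Of the 4 astrocyte markers tested, Slc1a3 was called lower in aged mice, where it had 1 and 2 UMIs. It passed the low-count filter only through the adult mice, so that call is not read further. Of 5 endothelial markers Cldn5 was called higher in aged mice, against 1.22% of all genes. The endothelial list summed to 7.57 and 7.86 UMIs per 10000 in the adult and 22.1 and 17.04 in the aged mice, led by Cldn5. The astrocyte list summed to 14.96 and 4.50 in the adult and 0.525 and 0.797 in the aged mice, led by Slc1a2. The macrophage, monocyte and dendritic cell list summed to 2.76 and 2.06 in the adult and 0.608 and 0.731 in the aged mice. Its most abundant gene Cd209a, a lectin of dendritic cells, had 14 and 18 UMIs in the adult against 0 and 1 in the aged mice. Cd209a was called lower, but it passed the low-count filter only through the adult mice, so that call is not read further. All Cd209a UMIs were in 4 pDC-like barcodes. Of this list Pf4 and Xcr1 were at 0. T cell genes stood between 0.138 and 0.505 UMIs per 10000, with Cd3d and Cd3e, which the rule limits, at 0, and natural killer genes at or below 0.631 with Gzma and Gzmb at 0.

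**Figure D5:**
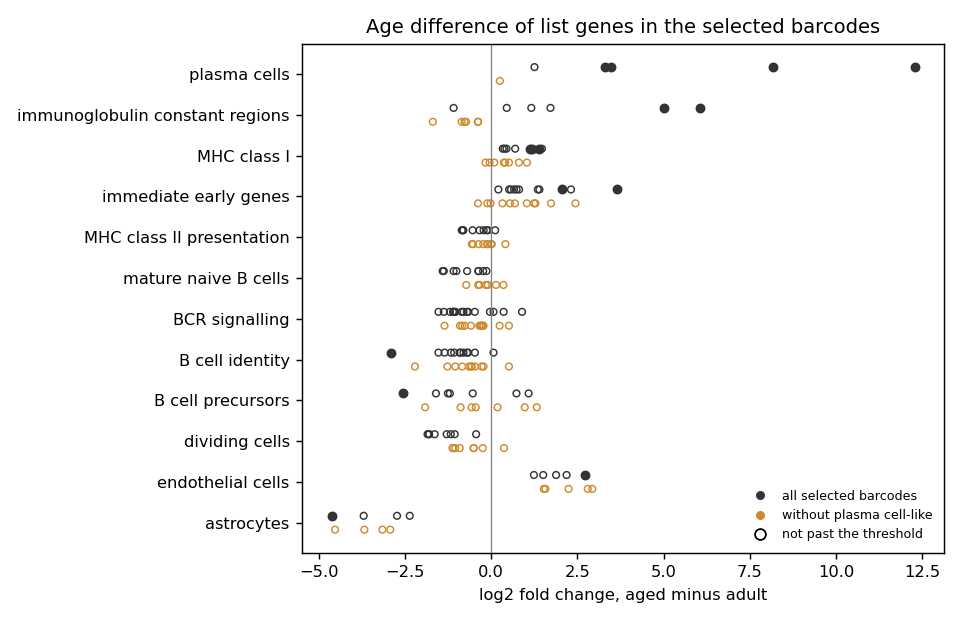
Log2 fold change (x, aged minus adult) of every tested gene of 12 lists (y), without the genes that chose the barcodes, in the sums over all selected barcodes (black) and without the plasma cell-like barcodes (orange), with filled points past the threshold in edgeR. Plasma cell genes lie at 1.26 to 12.3 in the black row, and no orange point is filled.

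T cells of the same mice served as the reference for whether the age difference was particular to B cells. In an edgeR model with the mouse as a block and the interaction of age with cell type, 1 of 6988 genes was called (0.0143%). It was Ighm, whose age difference was 6.02 higher on the log2 scale in the B cells than in the T cells (SE 0.38, edgeR adjusted p = 0.00426). In the B cells Ighm stood at 2499 and 1937 CPM in adult and 67666 and 73380 in aged mice on this scale. The 6.02 is larger than the log2 fold change of 5.00 in the selected barcodes alone, and the T cell counts of Ighm are not given here. Xbp1 and Txndc5 had differences of 3.54 and 3.72 and did not pass (edgeR adjusted p = 0.22 for each), nor did Tent5c, with 1 UMI in the adult B cells and 85 in the aged (edgeR adjusted p = 0.203). In the other direction Gpr37l1 did not pass at -4.87, nor did Slc4a4 and Ank2, which had 2 and 0 UMIs in the aged B cells. The call rested on single libraries: edgeR called none without either adult mouse, 89 genes without the aged mouse fed 0% inulin and 101 without the aged mouse fed 5% inulin. Without the immunoglobulin-rich barcodes no gene was called and 276 had an unadjusted p under 0.05.

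No gene was called between the diets (0% of 3773), with 72 at an unadjusted p under 0.05 in edgeR and 2 called by DESeq2. With age as a covariate edgeR called 2 genes, 1 in each direction. The 3 higher genes of smallest p without overlap are known in dividing cells. Ube2c, a ubiquitin-conjugating enzyme of mitosis, had 1 and 0 UMIs in the mice fed 0% inulin and 145 and 65 in those fed 5%. It was the gene called higher with age as a covariate. Cenpf, a kinetochore protein, stood at 0 and 22.4 CPM at 0% and 356 and 255 at 5% inulin, and Kif11, a spindle motor, at 0 and 7.46 against 178 and 80.2. Both mice fed 5% lay above both fed 0% for these genes, as for 14% of all genes tested, and below them for 10.6%. None of the 8 dividing cell genes tested passed without the covariate. Ube2c, Cdk1 and Ccnb1 had 1, 4 and 3 UMIs over both mice fed 0% inulin and passed the low-count filter only through the mice fed 5%. So did Cenpf, with 0 and 6 UMIs in the adult and aged mice fed 0% inulin, and Kif11, with 0 and 2. The call of Ube2c and the lack of overlap of Ube2c, Cenpf and Kif11 are therefore not read further. No median is given for the dividing cell list. The UMIs came from few barcodes: in the adult mouse fed 5% inulin 907 of the dividing list were in the 10 precursor-like barcodes and 176 in the 4 pDC-like ones, and in the aged mouse fed 5% inulin 268 were in the 3 pDC-like and none in the 2 precursor-like barcodes. At 0% inulin, 1 precursor-like barcode of the aged mouse held 139 and 1 of the adult mouse 20. Lower at 5% inulin, but not past the threshold, were Mfge8 (log2 fold change -1.82), Ddah1 (-2.38) and Glg1 (-1.65). The astrocyte-rich barcodes held 75.0%, 77.8% and 21.1% of their adult UMIs, and the endothelial-rich barcodes 44.4%, 87.5% and 67.4% of their aged UMIs.

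The 10 most abundant transcripts, leaving out mitochondrial and ribosomal protein genes, were Igkc, Malat1, Ighm, Gm42418, Tpt1, Tmsb4x, Jchain, Ighg2b, Cd74 and Eef1a1, on the mean over the 4 mice of CPM. The CPM in this paragraph are without the TMM adjustment. Ighg2b, the heavy chain of IgG2b, owed its place to a single barcode, at 0 in both adult mice, 22.1 CPM in the aged mouse fed 0% inulin and 20294 in the aged mouse fed 5% inulin. Cd74, the chaperone of MHC class II, was present in all 4 mice at 7746, 3935, 4057 and 4575 CPM, with no order by age.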

How the data were processed

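Whole brains were dissociated and depleted of debris, red cells, myelin and dead cells. Per the submitters' processing notes, Cell Ranger 3.1.0 and GRCm38 were used, and the authors deposited raw UMI counts per gene and barcode for each of 4 libraries, 55573 genes in all. Libraries held 88248117 to 115814810 UMIs and shared a sequencing lane. The members, ranges and gene lists were chosen with earlier results of these data known. The mitochondrial limit was the median plus 3 MADs (scaled by 1.4826) over all barcodes. No upper UMI limit and no doublet caller were applied. Shares per mouse got exact binomial 95% intervals and, at 0, a limit of 3 counts, both for counting error only. Thinned shares used 1000 UMIs per cell (seed 7). Age and inulin were compared on sums per mouse with edgeR 4.0.16 (filterByExpr, TMM, quasi-likelihood test, no covariate) in R 4.3.3 and with exact permutation tests in scipy 1.17.1, and DESeq2 1.42.0 was an alternative. Standard errors were taken from the log2 fold change and the F statistic. CPM levels use TMM-scaled library sizes, except those of the most abundant transcripts, which use unscaled totals. P-values measure the spread between 2 mice per group that differ in the other factor. Genes were named by rule: up to 15 called per direction for age by p, up to 5 for inulin and for B minus T cells, and, where fewer than 5 (or 3) were called, the 5 (or 3) of smallest p without overlap. The lists' genes were named within their list. Some genes that the rule names are not reported here. T cells needed 3 Cd3 UMIs and at most 1 marker UMI, and endothelial reference cells 20 UMIs of 5 endothelial genes. The fits were tested on simulated data.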

Additional observations from a re-analysis of the deposited data

Results flagged for a closer look

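The age difference of Ighm was larger in B cells than in T cells by 6.02 on the log2 scale, which the interaction test called. Its values are given above, and it was not called without the immunoglobulin-rich barcodes, which held 98.8% of the aged Ighm UMIs of the selection.

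The share of selected barcodes was higher at 5% than at 0% inulin in the adult mice, by 0.0739 percentage points, and lower in the aged mice, by -0.0694 percentage points. Each difference is between 1 mouse and 1 mouse, and the difference between the ages was not tested.

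Outside the selection, 8 more barcodes of the aged mice took at least 10% of their UMIs from immunoglobulin genes, against 0 in the adult mice. Of these, 5 were in the aged mouse fed 0% inulin and 3 in the aged mouse fed 5% inulin, and 6 failed the limit on C1q and 2 that on Cd3. Their immunoglobulin share was 18.3% to 45.9%. With them the aged mice had 15 and 13 such barcodes, or 0.226% and 0.165% of filtered barcodes. In the aged mouse fed 0% inulin Igkv6-15 with Ighv1-26 led in 2 of these 5, as in 1 selected barcode, and in the aged mouse fed 5% inulin the 3 barcodes held 7, 1 and 2 Igkv4-55 UMIs, the last 2 with no heavy variable UMI and near the 1 UMI found in other barcodes of that mouse.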

How the results depend on the processing

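The share difference between the ages, 0.0489 percentage points, became 0.111 with no limit on Cd3 or C1q, -0.0901 without the immunoglobulin-rich barcodes and -0.104 without these, the Siglech barcodes and those with UMIs of another brain cell type. These exclusions were chosen after seeing the data. The precursor gene share differed by -5.78 points, and by -12.2 with no thinning. The Ighd difference of 0.585 points became -19.0 with no thinning, -18.1 at 2 UMIs with no thinning, 19.7 without the immunoglobulin-rich barcodes and 32.4 without all 3 kinds. The lambda difference of -30.9 points became -12.5 as a mean over cells, -11.2 as the share of mostly lambda cells, -1.75 without the immunoglobulin-rich barcodes and -6.50 without all 3 kinds. Leaving out 1 mouse gave -0.0581 to 0.0625 points for the inulin share difference, 0.0119 to 0.0858 for the age share difference, -10.6 to -1.01 for precursor genes, -5.95 to 7.12 for Ighd and -37.1 to -24.8 for lambda.

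The 73 age calls became 475 with no low-count filter, 6 with cells thinned to 1000 UMIs, 40 at a marker minimum of 12, 166 with diet as covariate, 142 without the Siglech barcodes and 0 without the immunoglobulin-rich barcodes or all 3 kinds. They were 3 to 307 with 1 mouse left out. DESeq2 called 81, of which 59 were among the 73. The 0 inulin calls became 2 with DESeq2, 115 with no low-count filter, 2 below the upper UMI limit and 2 with age as covariate, and stayed at 0 to 0 with 1 mouse left out. The single call between B and T cells became 12 with DESeq2, 106 with no low-count filter, 14 below the upper UMI limit, 2 without the Siglech barcodes, 19 without barcodes with UMIs of another brain cell type, 0 without immunoglobulin genes, without the immunoglobulin-rich barcodes and without all 3 kinds, and 0 to 101 with 1 mouse left out. Of named genes, Ighm turned to -0.73 and Igkc to -0.77 without the immunoglobulin-rich barcodes, and without all 3 kinds Ighm to -0.30 and B2m to -0.0289. In the B minus T comparison Tent5c turned to -4.19, Xbp1 to -1.37 and Txndc5 to -0.56 without all 3 kinds. The causes were not tested. The labels number no replicates, and the fits with diet or age as covariate are those that compare mice alike in the other factor. With 19 to 27 barcodes per mouse, 3773 of 55573 listed genes passed the low-count filter.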

Other observations

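Immunoglobulin transcripts were also counted in barcodes of other cells. In endothelial barcodes Igkc stood at 0.386 and 0.181 UMIs per 10000 in the aged mice at 0% and 5% inulin and at 0.0413 and 0.0669 in the adult mice. Outside the immunoglobulin-rich barcodes it was found in 2419 and 1546 barcodes of the aged and in 341 and 330 of the adult mice.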
